A study of Mus musculus with 19 samples.

Results

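The full response of C2C12 cells to thapsigargin after 6 h was described across all expressed genes, from 3 libraries of cells given 100 nM thapsigargin for 6 h and 3 libraries of cells given the vehicle DMSO for 6 h. C2C12 is an established line of mouse myoblasts, labelled wild type, so the result describes 1 cell line. The 6 libraries were chosen by their labels out of 19 in 7 groups of this bulk RNA sequencing experiment on polyadenylated RNA. The other groups were thapsigargin and DMSO, each at 2 h and 12 h. In a further group, cells were given thapsigargin for 6 h and then kept 48 h without it. The other groups shared the fit, so they entered the filter on low counts, the scaling and the estimate of spread. They also served to compare the response between times. Whether the replicates of a group came from separate cultures is not stated in the labels, and p-values therefore cover only the spread seen among these libraries, part or all of which may be technical.

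Thapsigargin blocks SERCA, the pump that fills the endoplasmic reticulum (ER) with calcium, and the emptied store leaves ER chaperones unable to fold their clients. Unfolded protein is sensed by PERK, ATF6 and IRE1, whose combined output is the unfolded protein response. PERK phosphorylates the initiation factor eIF2, which slows translation and favours the factor ATF4, the arm shared with the integrated stress response (ISR). ATF6 is cut into an active factor, and IRE1 splices Xbp1 mRNA and can cleave other ER-bound transcripts. ATF4 binds a composite site as a dimer with a C/EBP protein such as CEBPG, and the question behind the series, per its title, is how ATF4 and CEBPG activate genes in this response.

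Promoters of 7 genes described later are shown because they carry the letters of the sites named above, with the bases from 250 before the start to the last base before it. The sequences are those of RefSeq on GRCm38.p6, written 5′ to 3′ in the direction of the gene. Capitals mark every match to 5 motifs searched on both strands with overlaps allowed. The motifs were the C/EBP-ATF composite TGATGNAA, the cyclic AMP element TGACGTCA, the XBP1 element TGACGTGG, the ER stress element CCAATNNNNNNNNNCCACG and its second form ATTGGNCCACG.
Hspa5, chr2:34771840-34772089, plus strand, 1 ER stress element: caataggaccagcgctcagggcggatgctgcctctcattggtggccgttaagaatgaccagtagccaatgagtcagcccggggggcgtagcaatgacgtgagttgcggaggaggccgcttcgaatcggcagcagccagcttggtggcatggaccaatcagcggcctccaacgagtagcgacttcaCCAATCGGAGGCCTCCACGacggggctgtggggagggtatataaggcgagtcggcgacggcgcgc
Hsp90b1, chr10:86705445-86705694, minus strand, 2 ER stress elements: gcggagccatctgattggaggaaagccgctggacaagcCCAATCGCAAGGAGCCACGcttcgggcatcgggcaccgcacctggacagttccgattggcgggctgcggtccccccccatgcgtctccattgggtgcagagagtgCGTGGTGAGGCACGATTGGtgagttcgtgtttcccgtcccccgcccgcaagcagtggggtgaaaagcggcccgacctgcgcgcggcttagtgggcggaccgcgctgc
Herpud1, chr8:94386179-94386428, plus strand, a composite site and the second form of the ER stress element: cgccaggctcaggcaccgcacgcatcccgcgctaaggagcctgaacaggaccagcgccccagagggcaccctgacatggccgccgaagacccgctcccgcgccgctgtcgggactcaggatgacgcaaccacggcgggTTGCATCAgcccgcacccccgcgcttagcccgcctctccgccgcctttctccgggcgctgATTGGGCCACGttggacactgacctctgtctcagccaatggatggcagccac
Atf3, chr1:191183334-191183583, minus strand, 1 composite site: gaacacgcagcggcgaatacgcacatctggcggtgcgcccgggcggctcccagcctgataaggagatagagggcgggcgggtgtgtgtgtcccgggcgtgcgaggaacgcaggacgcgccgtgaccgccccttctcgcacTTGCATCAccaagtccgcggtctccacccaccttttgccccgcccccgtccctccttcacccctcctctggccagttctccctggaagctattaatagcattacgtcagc
Chac1, chr2:119350992-119351241, plus strand, 1 composite site: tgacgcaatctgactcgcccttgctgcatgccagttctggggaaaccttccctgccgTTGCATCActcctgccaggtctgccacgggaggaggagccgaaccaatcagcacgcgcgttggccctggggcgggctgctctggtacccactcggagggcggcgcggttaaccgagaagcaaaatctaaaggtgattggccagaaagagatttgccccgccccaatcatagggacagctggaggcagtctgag
Slc7a11, chr3:50443614-50443863, minus strand, 2 composite sites: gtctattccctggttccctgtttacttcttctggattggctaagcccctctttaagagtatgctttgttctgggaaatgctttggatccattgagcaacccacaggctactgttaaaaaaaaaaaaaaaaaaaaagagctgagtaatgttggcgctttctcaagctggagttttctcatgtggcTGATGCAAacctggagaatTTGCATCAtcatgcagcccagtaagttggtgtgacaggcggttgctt
Fgf21, chr7:45615491-45615740, minus strand, 1 composite site: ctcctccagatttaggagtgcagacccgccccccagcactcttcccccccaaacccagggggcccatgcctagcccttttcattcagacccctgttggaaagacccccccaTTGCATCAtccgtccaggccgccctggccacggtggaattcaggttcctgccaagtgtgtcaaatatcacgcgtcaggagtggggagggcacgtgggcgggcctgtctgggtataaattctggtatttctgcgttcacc

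Over windows that also take in the first 50 bases of the gene, the composite motif was found in 3.97% of all 32851 promoter windows. It was present for 100 of the 1670 genes called higher that had a window (5.99%), for 24 of the 1148 called lower (2.09%) and for 355 of all 11784 tested genes (3.01%). The ER stress element was rarer, in 0.12% of all windows. Of the 21 tested genes that carried it, 13 were called higher and 0 lower, against 1670 and 1148 of all 11784 tested genes with a window. It was thus in 0.78% of genes called higher and in 0.18% of tested genes. The XBP1 element was in 31 genes called higher (1.86%) and in 1.03% of tested genes, and the cyclic AMP element in 64 (3.83%) and in 3.37%. These shares describe letters in the windows, not binding.

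The 6 libraries held 31657368 to 36199953 reads in genes with thapsigargin and 31667713 to 33832889 with DMSO. The fit tested 18039 genes, and a gene was called higher or lower with thapsigargin at a Benjamini-Hochberg adjusted p under 0.05 in edgeR's quasi-likelihood test. Thapsigargin changed 3931 genes (21.8%), of which 2344 were higher (13.0%) and 1587 were lower (8.8%). In 3796 genes (21.0%) every thapsigargin library lay above every DMSO library, and in 2962 (16.4%) every thapsigargin library lay below. Of the 3931 called genes, 61 had overlapping groups. With libraries scaled by total counts alone, which moves the median of all genes to 0.14 on the log2 scale from 0.01, 2067 genes were higher and 832 lower, so that 71.3% of the calls were higher against 59.6% in the fit with TMM scaling. Without thapsigargin replicate 1 and DMSO replicate 3, the libraries with the strongest length trend in each group, 1708 genes were called higher and 1468 lower. DMSO at 2 h replicate 3 and the 48 h recovery replicate 1 had over 10% mitochondrial reads. Without these 2 libraries of other groups in the fit, 3525 genes were called higher and 3063 lower. In a fit on the 6 libraries at 6 h alone, 3568 of the 3931 called genes passed the filter. That fit called 1928 genes higher and 1361 lower. In bulk RNA, fewer cells of a type and less RNA per cell cannot be told apart.

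The higher genes moved further than the lower genes. The median log2 difference was 2.10 among called higher genes and -1.16 among called lower genes. Of the called higher genes, 298 had no read in any DMSO library. With those set at the bound given by 3 counts per library, the median of the higher genes was 1.85. By at least 2-fold, 1900 genes were higher and 984 lower, and by at least 8-fold 886 were higher and 61 lower. These counts of fitted folds include genes with few or no DMSO reads, whose fold depends on the prior count. In 160 genes, 103 of them protein-coding, the DMSO libraries held no read while each thapsigargin library held at least 10. There was no gene with the reverse pattern.

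**Figure D1:**
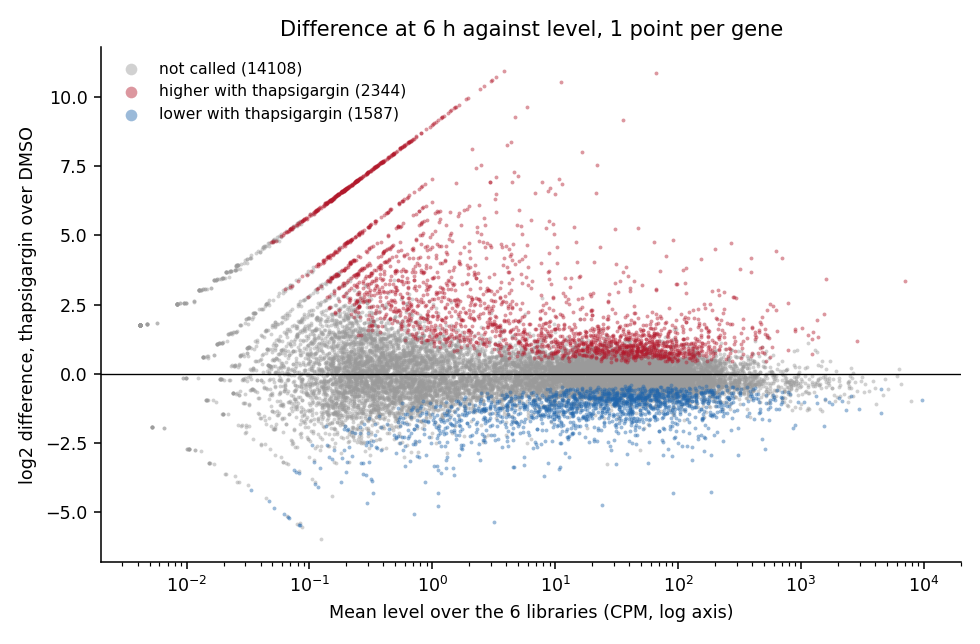
Log2 difference of thapsigargin over DMSO at 6 h (vertical axis) against the mean level over the 6 libraries in counts scaled to 1000000 reads per library (CPM, horizontal log axis), 1 point per tested gene, with genes called higher in red, called lower in blue and not called in grey. The red points spread to larger differences and to lower levels than the blue points, and straight rows at the left are genes with the same small number of DMSO reads.

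The share of calls depended on the level. Among genes with a mean under 1 CPM, 15.3% were higher and 2.3% lower, and among genes at 100 CPM or more 10.5% were higher and 12.7% lower. Long noncoding genes were higher in 16.0% and lower in 4.2%. A read was found in 24765, 22139 and 23577 genes in the thapsigargin libraries, against 20649, 20331 and 20456 in the DMSO libraries (exact two-sided permutation test, p = 0.1, the smallest that 3 against 3 allows). The groups did not overlap in this number, at similar depths.

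Transcript length was checked in each library, over 13998 protein-coding genes in 5 bins of the longest transcript. The median log2 deviation from the mean of the 6 libraries, longest bin minus shortest, was 0.789, -0.336 and -0.094 in the thapsigargin libraries, against -0.038, 0.246 and -0.587 in the DMSO libraries. Thapsigargin replicate 1 thus read long transcripts higher, DMSO replicate 3 read them lower, and the groups overlapped. The group means were 0.12 with thapsigargin and -0.126 with DMSO, a difference of 0.246 (exact two-sided permutation test, p = 0.7, smallest possible 0.1). From the shortest to the longest bin, 10.5%, 13.6%, 14.2%, 14.6% and 16.3% of genes were called higher and 8.2%, 11.6%, 11.5%, 11.3% and 9.9% lower. The median log2 difference was -0.21 in the shortest bin and 0.19 in the longest. With an offset per library for length and GC content these medians were -0.18 and 0.05.

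**Figure D2:**
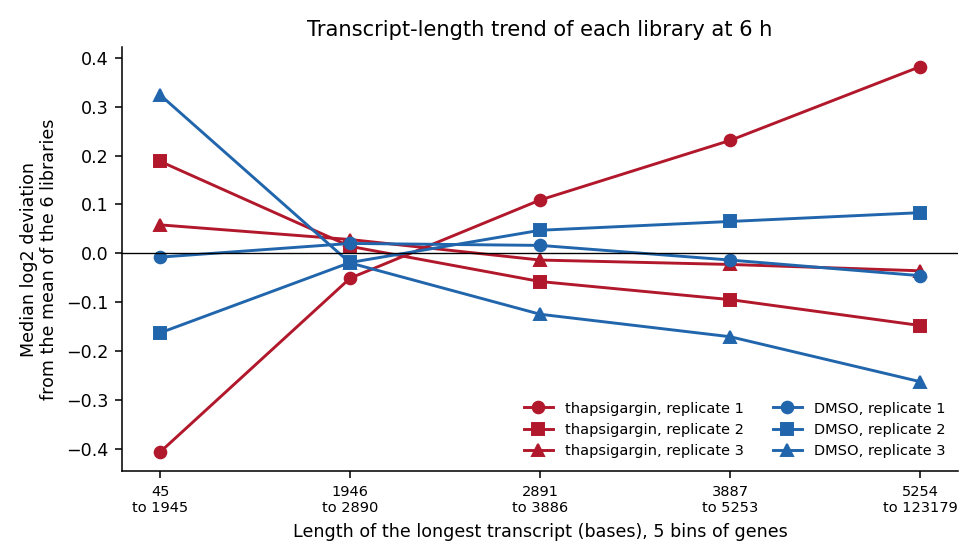
Median log2 deviation from the mean of the 6 libraries (vertical axis) in 5 bins of transcript length in bases (horizontal axis), 1 line per library, thapsigargin in red and DMSO in blue. Thapsigargin replicate 1 climbs by 0.789 from the shortest to the longest bin and DMSO replicate 3 falls by 0.587. The changes of the other 4 libraries from the shortest to the longest bin lie between these, and the groups overlap.

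The labelled cell type was checked by its markers. Of the myoblast genes, Myod1, the master factor of the muscle lineage, had 73.3, 90.5 and 94.9 CPM in the thapsigargin libraries, against 112, 103 and 88.6 CPM in the DMSO libraries, and did not pass the test (adjusted p = 0.55). Desmin (Des), the muscle intermediate filament, had 816, 1960 and 1619 CPM with thapsigargin, against 1846, 1464 and 2949.8 CPM with DMSO, and the groups overlapped. The muscle cadherin Cdh15 fell to 244, 318 and 292 CPM, against 518, 455 and 495 CPM in DMSO (log2 -0.78 ± 0.17 SE, adjusted p = 0.0039, and 0.081 with total-count scaling). Among the other myoblast markers Myf5 rose and Msc fell with thapsigargin, as given below with the muscle genes, and the level of Itga7 is not given here. Of the markers of differentiated muscle, Myog and Ckm were low in both groups. The levels of the other markers chosen, Myh3, Myh1, Acta1 and Mymk, are not given here. Myog and Ckm alone do not settle how far the cells had differentiated. Myog had 5.69 ± 1.66 CPM with thapsigargin and 5.39 ± 1.04 CPM with DMSO (mean ± SD, n = 3 each), and Ckm was under 1 CPM in every library.

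Markers of other cell types ranged from no read to abundant. Ptprc, Adgre1 and Itgam of leukocytes, Pecam1 and Tie1 of endothelium, Epcam of epithelium, Adipoq and Lep of fat, and Sox10 and Rbfox3 of glia and neurons did not reach the filter on low counts. Adgre1, Itgam, Cldn5, Epcam, Aqp4, Lep and Ibsp had no read in the 6 libraries. Markers of these lists were higher with thapsigargin in 4 of 5 tested endothelial, 6 of 9 epithelial, 2 of 6 neuronal and glial, 3 of 5 adipocyte, 2 of 8 bone and cartilage and 1 of 5 leukocyte markers, while 1 adipocyte and 2 bone and cartilage markers were lower. Over all genes tested 13.0% were higher and 8.8% lower. A marker near 0 in DMSO can pass the filter only through libraries where it is high, so the filter partly fixes these shares. The keratin Krt18 had 5.62, 10.4 and 10.6 CPM with thapsigargin, against 0.0305, 0.0311 and 0.158 CPM with DMSO. The clotting factor carrier Vwf had 5.52, 5.31 and 6.32 CPM, against 0.366, 0.0623 and 0.237 CPM. The summed level was 13 to 16.7 CPM for the endothelial list with thapsigargin, against 4.36 to 9.76 CPM with DMSO, and 77.1 to 164 against 91.7 to 177 CPM for the epithelial list, where the groups overlapped. The bone and cartilage list summed to 1611 to 2181 CPM with thapsigargin, against 2199.6 to 4196 CPM with DMSO, and the neuronal and glial list to 279 to 319 against 180.1 to 244 CPM. Their part in the results was not tested. Pparg, the fat cell regulator, was the most abundant marker of another type to rise, to 72.1, 51.4 and 54.6 CPM, against 14.4, 17.7 and 10.4 CPM in DMSO.

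Most factors of the ISR rose. Of 11 tested transcription factors and partners, 9 were higher and 0 lower, and the median log2 difference was 1.80, against 0.01 over all genes. Atf4 itself had 1548, 2008 and 2054 CPM in the thapsigargin libraries, against 683, 608 and 669 CPM in the DMSO libraries (log2 1.52 ± 0.23, adjusted p = 0.00017). Its partner Cebpg had 191, 164 and 160.2 CPM, against 38.5, 38.1 and 37.1 CPM (log2 2.18 ± 0.21, adjusted p = 2.5e-06). Both genes were higher in every thapsigargin library than in any DMSO library.

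Ddit3, which encodes the pro-death factor CHOP, had 406, 1868 and 1290.2 CPM with thapsigargin, against 40, 28 and 96.6 CPM with DMSO (log2 4.44 ± 0.74, adjusted p = 0.00042). Thapsigargin replicate 1, which read short transcripts low, was 3.88-fold below the mean of the other 2 replicates and still above all DMSO libraries. With an offset per library for length and GC content the log2 difference was 4.44. Atf3, a stress-induced repressor and activator whose promoter holds the composite letters, had 391, 371 and 386 CPM, against 18.8, 17.8 and 13.7 CPM (log2 4.51 ± 0.36, adjusted p = 4.4e-07). Nupr1, a chromatin cofactor induced by stress, averaged 493 ± 237 CPM with thapsigargin and 71.7 ± 37.1 CPM with DMSO (SD, n = 3 each; log2 2.78).

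**Figure D3:**
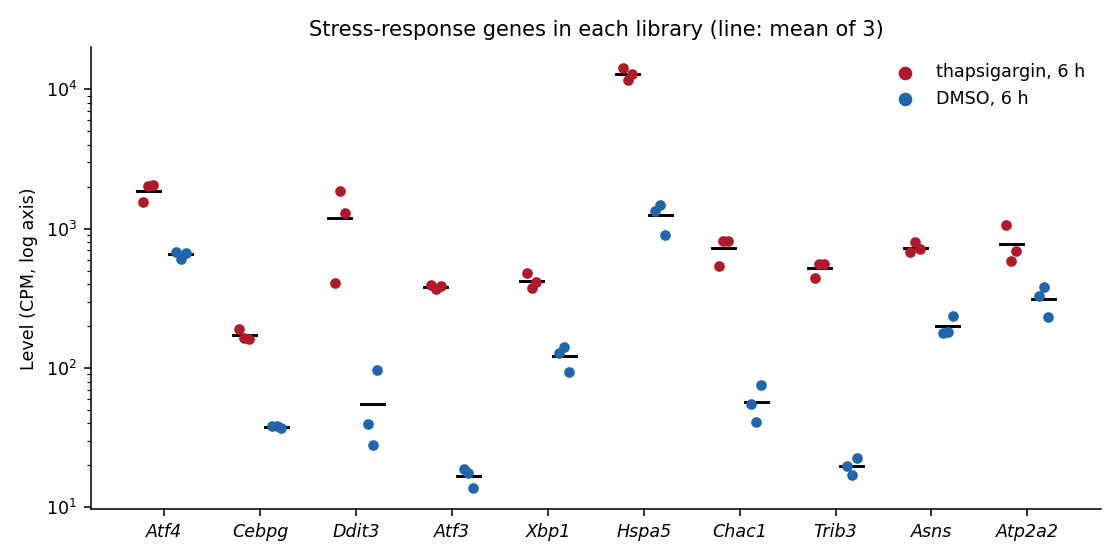
Level in each library in CPM (log axis) of 10 stress-response genes, thapsigargin in red on the left of each pair and DMSO in blue, with a line at the mean of 3 libraries. In all 10 genes every red point lies above every blue point, with the widest spread within a group in Ddit3.

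Feedback genes of the ISR moved in both directions, with 7 of 18 higher and 4 lower. Trib3, a pseudokinase that restrains ATF4 and AKT, had 439.9, 561 and 559 CPM with thapsigargin, against 20, 17.1 and 22.5 CPM with DMSO (log2 4.71 ± 0.31, adjusted p = 8.9e-08). Ppp1r15a, the phosphatase subunit GADD34 that dephosphorylates eIF2, rose to 746 ± 245 CPM, against 41.6 ± 12 CPM in DMSO (SD, n = 3 each; log2 4.17). Gadd45a, a growth arrest gene, rose by log2 4.15, and Sesn2, a sensor that restrains mTORC1, by log2 2.02. Their relatives did not all follow. Trib2 fell by 1.42 on the log2 scale, a call lost with total-count scaling (adjusted p = 0.078), and the translation repressor Eif4ebp2 was lower as well (log2 -1.05). Eif4ebp1 had a log2 difference of 1.32 with overlapping groups and did not pass the test (adjusted p = 0.072), though it did without thapsigargin replicate 1 (0.029) and without DMSO replicate 3 (0.031). The number of feedback genes called lower was 2 without thapsigargin replicate 2 or 3.

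Of 20 stress sensors and genes of the eIF2 machinery, 4 were higher and 0 lower. Xbp1, the substrate of IRE1, had 484, 375 and 413 CPM with thapsigargin, against 129, 142 and 93.4 CPM with DMSO (log2 1.80 ± 0.29, adjusted p = 0.00033). Gene counts do not separate spliced from unspliced Xbp1. The sensors Atf6 and Ern1, which encodes IRE1 alpha, rose by log2 1.62 and 1.56, and Eif2s2, the beta subunit of eIF2, by log2 0.99.

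Genes reported as ATF6 targets rose almost as a whole, 12 of 13 higher and 0 lower, with a median log2 difference of 2.31. Hspa5, which encodes the ER chaperone BiP and carries an ER stress element, had 14116, 11656 and 12839 CPM with thapsigargin, against 1345, 1488 and 905 CPM with DMSO (log2 3.37 ± 0.36, adjusted p = 7.6e-06). It took 1.58, 1.06 and 1.25% of all gene reads in the thapsigargin libraries, against 0.13, 0.151 and 0.0698% in the DMSO libraries. Herpud1, an ER membrane scaffold of protein degradation whose promoter holds both kinds of site, had 1357, 1225 and 1376 CPM, against 78.2, 80.1 and 59.4 CPM (log2 4.18 ± 0.33). The co-chaperone Sdf2l1 rose by log2 2.96, the calcium-binding chaperone Calr by log2 1.20, and Hyou1 and Hsp90b1, further chaperones of the ER lumen, by log2 2.54 and 1.93.

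Genes reported as XBP1 targets were higher in 7 of 18 (4 to 12 over the alternatives) and lower in 0, with a median log2 difference of 0.68. Dnajb9, a cofactor of BiP, rose to 189.7, 99.9 and 111 CPM, against 8.97, 14.1 and 7.39 CPM in DMSO (log2 3.71). Serp1, which stabilises nascent membrane proteins, rose by log2 1.67 and Edem1, a mannosidase-like degradation factor, by log2 1.29. Transcripts reported as cleaved by IRE1 went the other way, with 7 of 11 lower, 0 higher and a median of -1.64. Hgsnat, a lysosomal acetyltransferase, had 16.2, 13.4 and 15.9 CPM with thapsigargin, against 45.7, 52.6 and 43.3 CPM with DMSO, and Col6a1, a chain of collagen VI, had 9.12, 7.98 and 10.3 CPM, against 76.9, 71.9 and 54.2 CPM. Pdgfrb, the PDGF receptor beta, fell by 2.46 on the log2 scale, Gas1 by 2.35 and Tapbp by 1.75. Sparc, a matrix protein of the same list, averaged 1202 ± 96.1 CPM with thapsigargin and 1257 ± 85.1 CPM with DMSO (SD, n = 3 each), with overlapping groups.

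Some folding, transport and degradation genes of the ER rose, while glycosylation lists were near the 13.0% of all genes called higher. Among 23 disulfide isomerases and oxidases, 8 were higher (34.8%) and 2 lower (8.7%, near the 8.8% of all genes). Creld2 and Pdia4 rose by log2 2.46 and 2.31, and Ero1l, the oxidase that recharges the isomerases, by log2 2.32. The most abundant of them, P4hb, had 1633, 1739 and 1821 CPM with thapsigargin, against 1312, 1275 and 1144 CPM with DMSO, without overlap, and did not pass the test (adjusted p = 0.11), though it did with DESeq2 (0.0076), with length and GC offsets (0.046) and without the 2 libraries of other groups with high mitochondrial reads (0.0024). Of the ER translocon and signal peptidase genes 5 of 27 were higher and 0 lower, of the N-glycan genes 6 of 38 (15.8%) and 0, and of lectins and glucosidases 2 of 15 (13.3%) and 0. Alg12, a mannosyltransferase of the glycan precursor, rose by log2 1.78, and Alg2, another of them, by log2 1.45. Translocon genes called higher numbered 3 without thapsigargin replicate 3 or DMSO replicate 1.

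Of 26 genes of ER-associated degradation, 8 were higher and 1 lower, led after Herpud1 by the adaptor Sel1l (log2 2.54) and the ubiquitin ligase Syvn1 (log2 2.36). Vcp, the ATPase that extracts the substrates, averaged 724 ± 117 CPM with thapsigargin and 748 ± 175 CPM with DMSO (SD, n = 3 each), with overlapping groups. Vesicle coats and cargo receptors were higher in 12 of 40 and lower in 0, with the SNAREs Stx5a and Bet1 at log2 1.44 and 1.29. Proteasome genes showed no gene higher and 3 of 36 lower (8.3%, near the 8.8% of all genes, and 0 to 8 genes over the alternatives). The coat and cargo genes called higher numbered 6 without DMSO replicate 1 or 3.

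**Figure D4:**
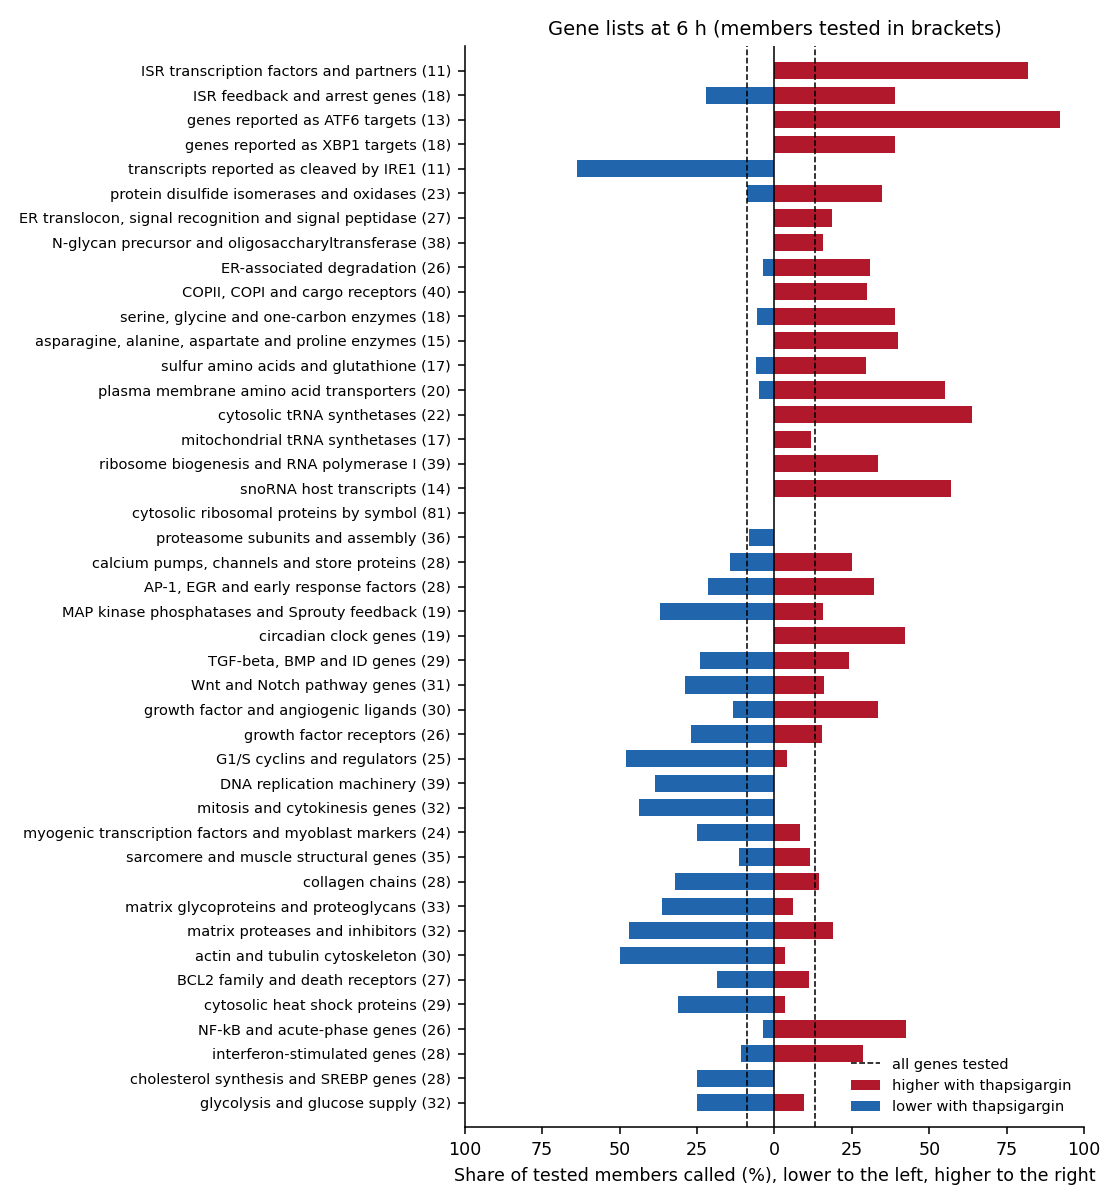
Share of the tested members of 43 gene lists that were called higher (red, to the right) or lower (blue, to the left) with thapsigargin at 6 h, in percent, with the number of members tested in brackets. Dashed lines mark 13.0% higher and 8.8% lower over all genes tested. ISR factors, ATF6 targets, amino acid transporters and cytosolic tRNA synthetases reach far to the right, and IRE1-cleaved transcripts, cytoskeleton, cell cycle and matrix lists reach to the left.

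Amino acid supply was a further area of increase. Of the serine, glycine and folate enzymes 7 of 18 were higher and 1 lower, of the asparagine, alanine, aspartate and proline enzymes 6 of 15 and 0, and of the sulfur amino acid and glutathione genes 5 of 17 and 1. Asns, asparagine synthetase, had 678, 803 and 709.6 CPM with thapsigargin, against 178, 182 and 236 CPM with DMSO (log2 1.88 ± 0.18, adjusted p = 2.9e-06). Aldh1l2, a mitochondrial folate enzyme, rose by log2 3.74, Psph, which makes serine, by log2 2.30, and Gpt2, an alanine transaminase, by log2 3.04. Phgdh, the entry enzyme of serine synthesis and the most abundant of its list, had 1035, 2181 and 1885 CPM with thapsigargin, against 946, 736 and 1264 CPM with DMSO, and the groups overlapped (adjusted p = 0.13, and 0.0081 with length and GC offsets).

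Chac1, which degrades glutathione, had 538, 819.8 and 810.0 CPM with thapsigargin, against 55.2, 40.9 and 75 CPM with DMSO (log2 3.66 ± 0.34, adjusted p = 1.8e-06). Cth, which makes cysteine from cystathionine, had 194, 116 and 144 CPM, against 9.79, 8.62 and 5.26 CPM. Amino acid transporters of the plasma membrane were higher in 11 of 20 tested and lower in 1. Slc3a2, the heavy chain shared by several exchangers, had 1998, 3516 and 3292 CPM, against 258, 213 and 356 CPM (log2 3.41 ± 0.30). Slc7a11, its partner in the cystine importer and the promoter with 2 composite motifs, rose to 79.7, 54.6 and 64.5 CPM, against 5.34, 5.57 and 4.74 CPM in DMSO. Both subunits of that importer were thus higher in each thapsigargin library than in any DMSO library. The glycine carrier Slc6a9 and the cationic carrier Slc7a3 rose by log2 3.87 and 3.85. Over all 257 tested solute carriers, 54 were higher (21%, against 13.0% of all genes) and 21 lower (8.2%, near the 8.8% of all genes). Solute carriers called lower numbered 12, 13 and 13 without thapsigargin replicate 2 and 3 and without DMSO replicate 1.

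Translation genes split by compartment and kind. Cytosolic tRNA synthetases were higher in 14 of 22 and lower in 0 (median log2 1.06). Mitochondrial tRNA synthetases were higher in 2 of 17 (11.8%, near the 13.0% of all genes) and lower in 0 (median 0.01). The test of that difference was not made. Wars rose by log2 2.06, and Aars, the alanyl enzyme, had 1299, 1694 and 1680.5 CPM with thapsigargin, against 525, 430.4 and 525 CPM with DMSO. Nars2, a mitochondrial enzyme, rose by log2 1.17, a call lost with total-count scaling (adjusted p = 0.064). Ribosome biogenesis genes were higher in 13 of 39 and lower in 0, with the assembly factors Nop14 and Rrp12 at log2 1.08 and 1.05.

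None of the 81 tested cytosolic ribosomal protein genes passed the test in either direction. Their median log2 difference was -0.32, and between -0.689 and 0.577 over the alternatives tried, so that it has no stable direction. Mitochondrial ribosomal protein genes were lower in 3 of 77 (3.9%, against 8.8% of all genes). At an unadjusted p under 0.05, 1 cytosolic ribosomal protein gene was higher and 1 lower, and DESeq2 called 1 higher and 0 lower. Initiation factors were higher in 2 of 32 (6.2%, against 13.0% of all genes), Eif1a and Eif3c (log2 1.09 and 0.98). Transcripts that host snoRNAs rose in 8 of 14 (median 1.29), among them Snhg12 and Snhg1 (log2 2.91 and 2.04), and in 5 without thapsigargin replicate 2 or DMSO replicate 1. Such transcripts are substrates of nonsense-mediated decay, whose factors were higher in 3 of 15 and lower in 0. Strandedness of the counting is not given in the sources used here, so reads of these hosts and of genes overlapping them on the other strand cannot be told apart.

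Both SERCA genes described here, which encode the drug's targets, were higher. Atp2a2, which encodes the ubiquitous pump SERCA2, had 1057, 584 and 688 CPM with thapsigargin, against 329, 382 and 233 CPM with DMSO (log2 1.30 ± 0.27, adjusted p = 0.0022). Atp2a3, the SERCA3 gene, had 44.6, 41.7 and 45.2 CPM, against 0.122, 0.125 and 0.474 CPM (log2 7.56 ± 0.44, adjusted p = 2.5e-08). Per kilobase of exon, Atp2a3 reached 8.3 RPKM with thapsigargin, against 0.0455 RPKM with DMSO, still below Atp2a2 at 128 RPKM and 51.8 RPKM. Of 28 tested pumps, channels and store proteins 7 were higher and 4 lower. The export pump Atp2b4 fell by 0.81 on the log2 scale, a call lost with total-count scaling (adjusted p = 0.21). In the calcineurin list 3 of 17 were higher (17.6%, against 13.0% of all genes) and 0 lower. The inhibitor Rcan1 and the catalytic subunit Ppp3ca were at log2 1.10 and 1.08. In the list of pumps, channels and store proteins the number called higher was 4 without DMSO replicate 1, and the number called lower was 2, 1, 1 and 2 without thapsigargin replicate 2 and 3 and without DMSO replicate 1 and 2.

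Early response and growth factor signalling genes moved in both directions. Of 28 AP-1, EGR and related factors 9 were higher and 6 lower. Egr1, a readout of growth factor signalling, had 22.1, 16.1 and 15.3 CPM with thapsigargin, against 71.3, 79.6 and 41.9 CPM with DMSO (log2 -1.85), and Egr2 and Egr3 fell by 2.22 and 2.46 on the log2 scale. Klf4 rose by log2 2.33. Klf15, a metabolic factor, had 5.95, 9.27 and 7.85 CPM with thapsigargin and no read with DMSO, and was at least 76-fold higher against 3 counts per library. Egr4, with 2 reads over the DMSO libraries, was 16.9-fold higher by summed reads (95% counting interval 4.39 to 145).

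MAP kinase phosphatases and Sprouty genes were lower in 7 of 19 and higher in 3. Errfi1, an inhibitor of the EGF receptor, had 60.7, 35.5 and 46.2 CPM, against 254, 286 and 188 CPM, and Dusp6, the ERK phosphatase, had 21.8, 8.68 and 11.1 CPM, against 61, 85.4 and 33.3 CPM. Dusp8, Dusp14 and Dusp16 instead rose (log2 1.67, 1.64 and 1.46). Clock genes were higher in 8 of 19 and lower in 0, with the repressors Nfil3 and Ciart and the activator Hlf at log2 3.25, 3.27 and 3.81. YAP and TEAD targets were higher in 1 of 18 (5.6%, against 13.0% of all genes) and lower in 3 (16.7%, against 8.8%).

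Secreted factors and receptors divided as well. Of 30 tested ligands 10 were higher and 4 lower. Fgf21, a hormone of metabolic stress whose promoter holds the composite letters, had 51.1, 80.4 and 82.1 CPM with thapsigargin, against 0.122, 0.187 and 0.0395 CPM with DMSO (log2 9.16 ± 0.47, adjusted p = 7.1e-09). Angptl6 and the glycoprotein hormone Stc2 rose by log2 4.58 and 2.24. Angpt1 and Hbegf fell by 2.65 and 1.53 on the log2 scale. Growth factor receptors were higher in 4 of 26 (15.4%, near the 13.0% of all genes) and lower in 7 (26.9%, against 8.8%). Ddr2, a collagen receptor, was at log2 1.97 and Mertk at log2 -2.13. The ligands called lower numbered 2 without thapsigargin replicate 3.

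In the TGF-beta, BMP and ID list 7 of 29 were higher and 7 lower. Tgfb1 and Tgfb3 fell by 1.61 and 1.79 on the log2 scale, while the repressor Skil and the BMP antagonist Nog rose by log2 1.82 and 2.62. Wnt and Notch genes were higher in 5 of 31 and lower in 9, with the Wnt antagonist Dkk2 at log2 -2.52 and the Notch ligand Jag1 at 1.80. TGF-beta list genes called higher numbered 4 without thapsigargin replicate 1 or DMSO replicate 3, and those called lower 4 without thapsigargin replicate 3.

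Many cell cycle genes were lower, and few or none were higher. Of 25 G1/S regulators 12 were lower and 1 higher, of 39 DNA replication genes 15 were lower and 0 higher, and of 32 mitosis genes 14 were lower and 0 higher, with medians of -0.84, -0.67 and -0.64 on the log2 scale. Ccne1, cyclin E1, had 6.1, 5.14 and 6.46 CPM in the thapsigargin libraries, against 57.2, 54.8 and 56.8 CPM in the DMSO libraries (log2 -3.25 ± 0.19, adjusted p = 3.1e-08). The S phase factors E2f2 and E2f8 fell by 2.38 and 2.61, and thymidine kinase Tk1 by 2.63 on the log2 scale. Cdk1, the mitotic kinase, had 116, 202 and 208 CPM, against 422, 375 and 486 CPM. Ccnd2, cyclin D2, was the G1/S gene that rose (log2 1.13). Top2a, the most abundant of the mitosis genes, averaged 297 ± 55.9 CPM with thapsigargin and 417 ± 96.1 CPM with DMSO (SD, n = 3 each), with overlapping groups. Mitosis genes called lower numbered 8, 7 and 9 without thapsigargin replicate 2 and 3 and without DMSO replicate 2. With total-count scaling the numbers called lower were 6 of the G1/S, 4 of the DNA replication and 6 of the mitosis genes. Top2a passed with offsets for length and GC content (adjusted p = 0.032).

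Nucleotide synthesis genes were lower in 5 of 24, led by the ribonucleotide reductase subunits Rrm2 and Rrm1 (log2 -1.36 and -0.94, calls lost with total-count scaling at adjusted p = 0.071 and 0.074), while Rrm2b, the subunit induced by p53, was the 1 that rose (log2 1.99). Homologous recombination genes were higher in 1 of 27 (3.7%, against 13.0% of all genes) and lower in 3 (11.1%, against 8.8%). Clustered histone genes were higher in 7 of 45 (15.6%, near the 13.0% of all genes) and lower in 0, with a median log2 difference of -0.45 that ran from -0.803 to 0.676 over the alternatives and up to 6 called lower in them. Those that rose were led by Hist3h2ba and the linker histone Hist1h1c (log2 4.59 and 2.20). Most histone transcripts of replicating cells carry no poly(A) tail, and these libraries were made from polyadenylated RNA. Nucleotide synthesis genes called lower numbered 3 without thapsigargin replicate 3, and histone genes called higher 4 without thapsigargin replicate 2.

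Muscle genes were called in both directions. Of 24 tested myogenic factors and myoblast markers 2 were higher (8.3%) and 6 lower (25%). Of 35 sarcomere and structural genes 4 were higher (11.4%) and 4 lower (11.4%). Over all genes 13.0% were higher and 8.8% lower, so the sarcomere shares were near those of all genes. Myf5, a determination factor of myoblasts, had 272, 129 and 134 CPM with thapsigargin, against 17.2, 25.5 and 14.2 CPM with DMSO (log2 3.23 ± 0.43, adjusted p = 6.4e-05). Snai2, a repressor in the same list, rose by log2 2.15. Musculin (Msc), a factor of the muscle lineage, fell by 2.39 on the log2 scale. Smooth muscle actin Acta2 had 234, 441 and 404 CPM, against 1283, 1118 and 1729 CPM, and the light chain Myl9 fell by 2.49 on the log2 scale. The myogenic factors and markers called lower numbered 3 without thapsigargin replicate 2 or 3 or without DMSO replicate 1 or 2. The median log2 differences of the myogenic and the sarcomere list were -0.45 and -0.51. In reads, the myogenic list took 0.329, 0.397 and 0.376% of gene reads with thapsigargin, against 0.459, 0.413 and 0.494% with DMSO, and the sarcomere list 0.308, 0.446 and 0.421%, against 0.605, 0.543 and 0.674%. In these shares the groups did not overlap in either list (exact two-sided permutation test, p = 0.1 for each, the smallest possible). Many of the other lists had the same p in this test, and the lists were chosen with earlier results of these data known. The p-value therefore does not set the muscle lists apart. In summed CPM the myogenic groups did overlap, at 2943 to 4364 with thapsigargin against 4069 to 6407 with DMSO. The sarcomere groups did not, at 2754.5 to 4897 against 5352 to 8746. Both lists contain Des.

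The cytoskeleton and matrix lists had more members called lower than higher. Among 30 actin and tubulin cytoskeleton genes 15 were lower (9 to 20 over the alternatives) and 1 higher (median log2 -0.99). Actb and Actg1, the cytoplasmic actins, fell by 1.41 and 1.30 on the log2 scale, thymosin Tmsb4x by 1.89 and vimentin (Vim) by 0.94. Actb took 0.205, 0.25 and 0.269% of gene reads with thapsigargin, against 0.616, 0.574 and 0.582% with DMSO. Reads of the actin genes and of their pseudogenes can be shared, so their split is uncertain. The exception was Avil, an actin-severing protein, with 82.2, 95.9 and 96.3 CPM with thapsigargin, against 2.9, 2.49 and 1.7 CPM with DMSO (log2 5.27 ± 0.26, adjusted p = 6.7e-09).

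Matrix proteases and inhibitors were lower in 15 of 32 (7 to 18 over the alternatives) and higher in 6. Matrix glycoproteins were lower in 12 of 33 (7 to 18) and higher in 2. Collagen chains were lower in 9 of 28 (6 to 11) and higher in 4 (14.3%, near the 13.0% of all genes). Collagen-modifying enzymes were lower in 8 of 23 (8 to 12) and higher in 2, and integrin and adhesion genes lower in 7 of 27 (4 to 11) and higher in 2. Thbs1, thrombospondin 1, had 26.3, 12.9 and 16.8 CPM with thapsigargin, against 362, 479 and 222 CPM with DMSO (log2 -4.25 ± 0.53, adjusted p = 3.3e-05). The basement membrane protein Nid1 had 35.1, 10.6 and 15.6 CPM, against 163, 236 and 78.2 CPM, and the laminin receptor Itga3 had 24.5, 30.6 and 25.2 CPM, against 214, 199.7 and 285 CPM. The collagen VI chains fell together, Col6a1 by 2.89, Col6a2 by 1.90 and Col6a3 by 1.95 on the log2 scale. Col1a2, the most abundant chain, had 678, 509 and 587 CPM, against 936, 968 and 695 CPM, and did not pass the test (adjusted p = 0.15). Of the proteases, Plau (urokinase) and Mmp14 fell by 2.72 and 1.94, whereas Mmp13 rose by log2 3.45 and Mmp9, with no DMSO read, was at least 7.94-fold higher. Collagen chains called higher numbered 2 without thapsigargin replicate 3 or DMSO replicate 1 or 3.

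Death, damage and protective genes gave a mixed picture. In the BCL2 and death receptor list 3 of 27 were higher (11.1%, against 13.0% of all genes) and 5 lower (18.5%, against 8.8%). The BH3-only genes Bbc3 (PUMA) and Pmaip1 (NOXA) rose by log2 1.48 and 1.63, and Bok fell by 2.49 on the log2 scale. Genes known as p53 targets were higher in 8 of 25 and lower in 3, among them Plk3 (log2 1.76). Sesn2, Bbc3 and Pmaip1 of this list are also known as genes of the ISR. NRF2 genes were higher in 3 of 27 (11.1%) and lower in 3 (11.1%), near the shares of all genes. Hmox1, heme oxygenase, had 598, 535 and 640.4 CPM with thapsigargin, against 46.9, 44 and 36.7 CPM with DMSO.

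Cytosolic heat shock genes were lower in 9 of 29 (3 to 13 over the alternatives) and higher in 1. Hspa8, the constitutive HSC70, had 1146, 2173 and 1917 CPM with thapsigargin, against 4001, 3284 and 5282 CPM with DMSO, and the small chaperone Cryab fell by 1.63 on the log2 scale. Hspa1b fell by 2.41, although its reads are uncertain because of its near-identical neighbour Hspa1a. Mitochondrial chaperones and proteases were higher in 3 of 17 (17.6%, against 13.0% of all genes) and lower in 0. Those higher were Lonp1, Hspa9 and Dnaja3 (log2 1.81, 1.33 and 1.12). Autophagy genes were higher in 4 of 31 (12.9%, near the share of all genes) and lower in 2, with the receptor Sqstm1 (p62) at log2 2.15. Lysosomal genes were higher in 1 of 33 and lower in 7. Lysosomal genes called lower numbered 4 without thapsigargin replicate 1 or 2 or without DMSO replicate 1.

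Inflammatory genes were higher in part, many of them from low levels. NF-kB and acute-phase genes were higher in 11 of 26 and lower in 1 (median log2 0.79), and interferon-stimulated genes were higher in 8 of 28 and lower in 3. Tnfaip2, the most abundant, had 346, 513 and 480.0 CPM with thapsigargin, against 202, 161 and 266 CPM with DMSO, a call lost without DMSO replicate 2 (adjusted p = 0.07). Lcn2, an acute-phase iron carrier, had 1.31, 3.54 and 2.27 CPM and no DMSO read, at least 23.5-fold higher. Ptx3 and Saa3, further acute-phase genes, rose by log2 7.15 and 5.63, from 6 and 9 reads in all over the DMSO libraries. The alarmin Il33 was the member that fell, by 1.92. Ifit1 and Mx2, antiviral genes, rose by log2 3.69 and 3.66.

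Chemokines were higher in 4 of 19 and lower in 4, with Cxcl10 at log2 6.06 and Cxcl12 at -2.86. MHC class I and antigen processing genes were higher in 4 of 19 and lower in 2, with the ER chaperone Calr among those that rose. The chemokines called higher numbered 2, 1, 2 and 2 without thapsigargin replicate 2 and 3 and without DMSO replicate 1 and 2.

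Lipid and energy lists differed in how many members were lower, against 8.8% of all genes. Cholesterol synthesis and SREBP genes were lower in 7 of 28 and higher in 0, with Dhcr7, the last step of synthesis, at 9.27, 7.81 and 9.69 CPM with thapsigargin, against 40.4, 37.3 and 30.2 CPM with DMSO. Lipoprotein receptors were higher in 4 of 17 and lower in 6. Lrp1, a scavenger receptor, had 172, 148 and 148 CPM, against 799.7, 765 and 848 CPM, and Vldlr had 4.36, 3.89 and 2.52 CPM, against 0, 0.0934 and 0.079 CPM. Fatty acid and lipid droplet genes were higher in 5 of 35 (14.3%) and lower in 4 (11.4%), with choline kinase Chka at log2 1.79 and the elongase Elovl6 at -1.50. Cholesterol genes called lower numbered 4 without thapsigargin replicate 2 or 3 or without DMSO replicate 1 or 2, and lipid droplet list genes called higher 3 without thapsigargin replicate 1 or DMSO replicate 3.

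Glycolysis genes were lower in 8 of 32 and higher in 3. Pkm and Tpi1 fell by 0.78 and 1.02 on the log2 scale, and Gapdh had 1707, 4945 and 3743 CPM with thapsigargin, against 4941, 3737 and 8849 CPM with DMSO, with overlapping groups. Pck2, the mitochondrial enzyme that links pyruvate and serine metabolism, rose by log2 1.67. Nuclear genes of oxidative phosphorylation were higher in 1 of 35 and lower in 2 (5.7%), and citric acid cycle genes higher in 1 of 20 and lower in 3. The 1 oxidative phosphorylation gene that rose was the muscle and heart isoform Cox6a2, with 15.3, 49.2 and 34.3 CPM, against 0.0915, 0.0934 and 0.198 CPM. None of the 13 mitochondrially encoded mRNAs passed the test (median log2 -0.75). At an unadjusted p under 0.05, 0 of them were higher and 0 lower, and DESeq2 called 0 higher and 0 lower. Glycolysis genes called lower numbered 5 without thapsigargin replicate 3 or DMSO replicate 1, and without any single one of the 6 libraries the call of Pkm was lost. In 6 of the 13 mitochondrially encoded mRNAs every thapsigargin library lay below every DMSO library, as in 16.4% of all genes tested. When the 2 libraries of other groups with over 10% mitochondrial reads were left out, 6 were called lower, among 3063 genes called lower in that fit. The median log2 difference of the 13 was between -0.923 and -0.361 over the alternatives.

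Splicing factors and some large gene families were counted as well. Splicing factors were higher in 2 of 30 and lower in 1, the 2 being Clk4 and Rbm39 (log2 1.32 and 1.07). Zinc finger genes were higher in 53 of 346 (15.3%, near the 13.0% of all genes) and lower in 10 (2.9%, against 8.8%). Receptors with a GPR symbol were higher in 11 of 56 (19.6%) and lower in 9 (16.1%). Zinc finger genes were called higher in 33, 28 and 31 without thapsigargin replicate 1 and DMSO replicate 1 and 3, and called lower in 6, 5 and 6 without thapsigargin replicate 2 and 3 and without DMSO replicate 2. The GPR genes called higher numbered 7 without DMSO replicate 3.

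The genes with the largest log2 differences at a mean of at least 5 CPM were not the classical stress genes alone. The 15 highest were Car6, H2-M10.1, Fgf21, Cox6a2, Atp2a3, Cd74, Sspo, Dyrk4, Tfcp2l1, Elmo1, Extl1, Tpsab1, Tcam1, Adra1b and Fat2. Car6, the secreted carbonic anhydrase, had 90.4, 163 and 140.2 CPM in the thapsigargin libraries, against 0.0305, 0.0623 and 0.119 CPM in the DMSO libraries (log2 10.85 ± 0.58, adjusted p = 9.8e-09). H2-M10.1, a class Ib MHC gene of a family of close copies, had 23.3, 19.3 and 24.1 CPM, against 1 read over the DMSO libraries. Its ratio of summed reads was 2026 (95% counting interval 363 to 80052). Cd74, the invariant chain of MHC class II, had 7.43, 21.5 and 17.8 CPM, against 0.122, 0.0623 and 0.198 CPM. Adra1b, an alpha-1 adrenergic receptor, had 16.2, 17.3 and 18.8 CPM, against 0.214, 0.529 and 0.395 CPM. In each of these 15 genes the groups do not overlap, which the choice required.

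The 15 lowest were Nptx1, Oaf, Thbs1, Slc14a1, Slco4a1, Pxylp1, Ccne1, Chst15, Itga3, Spon2, Evi2a, Nid1, Emp1, Crip1 and Mrc2. Nptx1, neuronal pentraxin 1, had 1.64, 2.01 and 1.53 CPM with thapsigargin, against 47.7, 52.3 and 38.7 CPM with DMSO (log2 -4.74 ± 0.23, adjusted p = 6.4e-09). Oaf had 6.25, 11.5 and 8.44 CPM, against 159, 142 and 218 CPM. Emp1, a membrane protein, had 118, 42.2 and 54.9 CPM, against 528, 793 and 322 CPM. Several of these lowest genes encode secreted or surface proteins, among them Thbs1, Nptx1, Spon2, Nid1, Itga3 and Mrc2. The call of Crip1 was lost without thapsigargin replicate 1 (adjusted p = 0.11), thapsigargin replicate 3 (0.089) and DMSO replicate 3 (0.15).

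The smallest adjusted p-values belonged to P2rx7, Avil, Nptx1, Fgf21, Otub2, Car6, Stard5, Acot2, Atp2a3 and Ccne1. P2rx7, the ATP-gated ion channel, had 205, 148 and 173 CPM with thapsigargin, against 6.62, 6.85 and 5.02 CPM with DMSO (log2 4.83 ± 0.21, adjusted p = 3.4e-09). Otub2, a deubiquitinase, had 65.1, 59.4 and 58.1 CPM, against 5.86, 5.23 and 6.88 CPM, and Stard5, a sterol carrier, had 73.4, 70.3 and 70.7 CPM, against 5.58, 5.7 and 7.07 CPM. The mitochondrial thioesterase Acot2 rose by log2 5.21. Of these 10 genes 8 were higher and 2 lower.

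In reads, not per length, the largest gains among called genes were in Hspa5, Slc3a2, Calr, Sqstm1, Hsp90b1, Herpud1, Atf4, Hspa9, Ddit3 and Hyou1. These 10 genes together took 3.53, 2.9 and 3.19% of gene reads in the thapsigargin libraries, against 0.607, 0.649 and 0.447% in the DMSO libraries. The largest losses were in Vim, Actb, Hspa8, Actg1, Tmsb4x, Hsp90ab1, Flna, Pkm, Tubb5 and Fn1, which took 1.99, 2.29 and 2.35% with thapsigargin, against 4.38, 4.05 and 3.98% with DMSO. Of the 10 gains 6 are chaperones or degradation factors of the ER or mitochondria, and of the 10 losses 6 belong to the cytoskeleton. Hsp90ab1, with log2 -0.55 and an adjusted p of 0.05, and Fn1, fibronectin, with log2 -0.87 and 0.05, lay just inside the threshold. Leaving out any single one of the 6 libraries ended the calls of Hsp90ab1 (adjusted p 0.074 to 0.14) and Pkm (0.053 to 0.11). The call of Flna was lost without every library but DMSO replicate 2 (0.063 to 0.17) and that of Fn1 without every library but DMSO replicate 3 (0.069 to 0.15). The call of Vim was lost without thapsigargin replicate 1 (0.054).

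The response at 6 h was set against the responses at 2 h and 12 h, each over the DMSO libraries of its own time, which share no library. The response differed from that at 2 h in 719 genes (3.99%). With its sign kept, the log2 difference was higher at 6 h in 382 of them and lower in 337. A repressed gene that had fallen further at 6 h thus counts as lower, so these numbers do not give stronger and weaker responses. From that at 12 h the response differed in 103 genes (0.571%), 96 of them with a higher signed log2 difference at 6 h and 7 with a lower. The 12 h groups held 2 libraries each. Over the alternatives tried these counts were 321 to 1975 against 2 h and 30 to 732 against 12 h.

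Chac1 had a log2 difference of 7.18 ± 0.40 at 2 h, 3.66 ± 0.34 at 6 h and 3.86 ± 0.42 at 12 h, and the response at 6 h was smaller than at 2 h (log2 -3.51 ± 0.45, adjusted p = 0.00029). The response of Trib3 was likewise smaller at 6 h than at 2 h (log2 -1.48 ± 0.38, adjusted p = 0.04). Asns went the other way, with 0.80 at 2 h, 1.88 at 6 h and 2.04 at 12 h on the log2 scale (6 h minus 2 h 1.08 ± 0.25, adjusted p = 0.023). For Atf4, Cebpg, Ddit3, Atf3, Xbp1, Hspa5 and Atp2a2 the difference between 6 h and 2 h did not pass the test, with values between -0.51 for Atf4 and 1.31 for Atp2a2 and adjusted p between 0.062 for Atp2a2 and 0.9999 for Ddit3. None of the 10 panel genes differed between 6 h and 12 h, with adjusted p of at least 0.51. Leaving out thapsigargin replicate 1, 2 or 3 or DMSO replicate 1 or 3 ended the call of Trib3 (adjusted p 0.066 to 0.087). Leaving out thapsigargin replicate 2 or DMSO replicate 1 or 2 ended that of Asns (0.060 to 0.075), and without thapsigargin replicate 2 Atp2a2 passed (0.048). Total-count scaling (0.16 and 0.20) and a filter of 1 count (0.063 and 0.094) also ended the calls of Trib3 and Asns, and the replicate block that of Trib3 (0.068). Hspa5 passed with DESeq2 (0.021), with length and GC offsets (0.034) and without the 2 libraries of other groups with high mitochondrial reads (0.0015). Atp2a2 passed in 7 alternatives, among them the length and GC offsets (0.0018).

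All 10 genes with the smallest p-values at 6 h differed from their response at 2 h. P2rx7 had a log2 difference of 0.79 ± 0.18 at 2 h, 4.83 ± 0.21 at 6 h and 2.15 ± 0.23 at 12 h, and its response at 6 h was larger than at either time (adjusted p = 8.5e-07 against 2 h and 0.0003 against 12 h). Avil had 0.30 at 2 h, 5.27 at 6 h and 7.39 at 12 h, larger at 12 h than at 6 h (adjusted p = 0.012). Nptx1 had -0.76 at 2 h, -4.74 at 6 h and -6.04 at 12 h. The last pair did not differ by the test (adjusted p = 0.11). These genes were picked by their result at 6 h, so the gap to other times is a description for genes with an extreme value there. Otub2 lost its call against 2 h with total-count scaling (adjusted p = 0.20) and with a filter of 1 count (0.089), and Avil its call against 12 h with total-count scaling (0.16). Nptx1 passed against 12 h with DESeq2 (0.011) and without the 2 libraries of other groups with high mitochondrial reads (0.016).

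**Figure D5:**
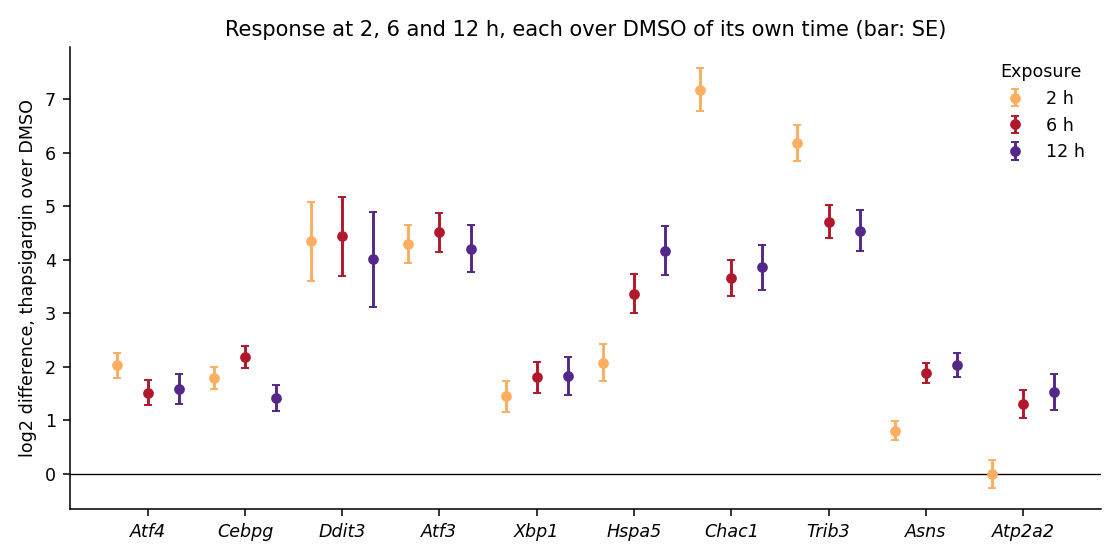
Log2 difference of thapsigargin over DMSO (vertical axis) of the 10 panel genes at 2 h, 6 h and 12 h, each over DMSO of its own time, with bars of 1 SE from the fit. Chac1 and Trib3 lie highest at 2 h, Asns and Atp2a2 lie lowest at 2 h, and the 6 h and 12 h points of a gene differ by less than 1 log2 unit in all 10 genes.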

How the data were processed

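Polyadenylated RNA of C2C12 cells was sequenced, and the authors deposited raw gene counts for each of the 19 libraries, as whole numbers that were not normalized. The submitters' processing notes list Trim Galore, STAR 2.5.3a, bedtools 2.31.0, DESeq2 and the mm10 build, whereas the counting program, its annotation release and its strand setting are not given in the sources used. Reads that the deposited count files list as unassigned made up 14.5 to 16.4% of the thapsigargin libraries at 6 h and 15.3 to 18.5% of the DMSO libraries at 6 h and were left out. Of 55401 gene IDs, 55141 matched a GENCODE M21 name.

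Counts of all 7 groups were fitted with edgeR 4.0.16 and limma 3.58.1 in R 4.3.3, with TMM scaling, edgeR's default filter on low counts, a quasi-likelihood test of each contrast and Benjamini-Hochberg adjustment over all 18039 genes tested. The procedure was tested on simulated data. The common biological coefficient of variation was 0.352. Counts per 1000000 reads (CPM) use effective library sizes, and fold changes are log2 of thapsigargin over DMSO with the standard error (SE) of the fit. The comparison of the response with 2 h and 12 h was an interaction contrast in the same fit. DESeq2 1.42.0 was an alternative test, and Python 3.11.15 with numpy 2.4.6, pandas 2.3.3, scipy 1.17.1 and matplotlib 3.10.9 made the summaries. A floor of 3 counts per library and 95% exact intervals cover counting error only.

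The members and the 79 gene lists were chosen with earlier results of these data known. Genes named are a panel of 10, the 15 highest and 15 lowest log2 differences among calls that average 5 CPM or more and whose groups do not overlap, the 10 largest gains and losses in CPM, the 10 smallest adjusted p-values, and in each list the most abundant member and up to 3 called members in each direction, plus cell type markers. Alternatives were other scalings, filters and tests, fits on fewer libraries, a replicate block, and offsets for length and GC content.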

Additional observations from a re-analysis of the deposited data

Results flagged for a closer look

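The response to thapsigargin at 6 h differed from that at 2 h, by the interaction test in edgeR, in 3 of the 10 panel genes and in all 10 genes with the smallest p-values at 6 h. The log2 difference at 6 h minus that at 2 h was -3.51 for Chac1 and -1.48 for Trib3, both smaller at 6 h, and 1.08 for Asns, which was larger. It was 6.57 for Car6, 5.64 for Atp2a3, 4.97 for Avil, 4.92 for Fgf21, 4.03 for P2rx7, 3.06 for Acot2, 2.64 for Stard5 and 1.07 for Otub2. The repressed genes Nptx1 and Ccne1 had -3.98 and -2.50, so both had fallen further at 6 h. The log2 difference at 6 h minus that at 12 h was 2.68 for P2rx7 and -2.12 for Avil. The 10 genes with the smallest p-values were chosen by their result at 6 h. With 3 libraries a group, no single library was checked by Dixon's rule. By counts, the chi-square per degree of freedom was 371.8 and 233 for thapsigargin replicate 1 against the other 2 replicates, which differed from each other by 31.1, and 222.9 and 347.5 for DMSO replicate 3, against 32.7 between the other 2.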

How the results depend on the processing

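No gene called both in the reported test and in an alternative changed direction in any of 17 alternatives, and of all 3931 called genes at most 1 per alternative changed sign, with length and GC offsets. In all, 67.1 to 99.9% of the calls were shared. Of 184 called genes named, 162 kept their call throughout and 22 lost it in some. Without the other-group libraries over 10% mitochondrial reads, 6588 genes were called (3525 higher, 3063 lower), with 1975 differing from 2 h and 732 from 12 h. Total counts alone gave 832 lower genes, 321 against 2 h and 30 against 12 h. A filter of 1 count gave 462 and 65, DESeq2 1557 and 437, and length and GC offsets 1266 and 216 against 2 h and 12 h. The cause of these shifts was not tested. Leaving out single libraries gave 2897 to 3316 calls (1730 to 2087 higher, 1143 to 1426 lower), 467 to 642 against 2 h and 71 to 104 against 12 h. Genes that were not called changed sign. Without thapsigargin replicate 1 and DMSO replicate 3 together, an alternative chosen after seeing the data, Des was at 0.12, Gapdh at 0.0064, Sparc at 0.0597 and Vcp at 0.286. With total counts Sparc was at 0.061 and Vcp at 0.095. Without single libraries Vcp ranged over -0.182 to 0.165, Myog over -0.109 to 0.294 and the gap of Ddit3 to 2 h over -0.398 to 0.781. The medians of mitochondrial ribosomal proteins (-0.367 to 0.419) and collagens (-0.623 to 0.266) also changed sign over the alternatives.

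Whether replicate numbers pair the samples is not stated in the labels. Deviations of same-numbered libraries correlated at 0.303, -0.608 and 0.391, and not every library correlated best with its own number. These correlations cannot settle the pairing, because the deviations also carry the length trends of single libraries. Thapsigargin replicate 1 and DMSO replicate 3, with opposite length trends, correlated at -0.699. With the replicate block 3457 genes were called (2093 higher, 1364 lower), 504 against 2 h and 71 against 12 h. At 31657368 to 36199953 reads per library, genes under 1 CPM rest on few reads, and 3 against 3 libraries cannot reach a permutation p below 0.1.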

Other observations

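Across the tested genes, the median DMSO level was 0.942 CPM for genes called higher, 34.3 CPM for genes called lower and 9.66 CPM for genes not called. This order is partly fixed by the filter and the call, since a gene near 0 in DMSO cannot be called lower and can pass the filter through the thapsigargin libraries alone. Mitochondrial transcripts took 1.41 to 1.88% of gene reads in the 3 thapsigargin libraries at 6 h and 1.87 to 2.95% in the 3 DMSO libraries at 6 h, and the groups overlapped.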
